A study of Homo sapiens with 7 samples.

Results

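The peaks on the alternate sequences of human chromosome 6 were examined in 6 ChIP-seq peak lists of OCI-Ly7 cells, a line established from diffuse large B-cell lymphoma. Every peak whose sequence name starts with chr6_ and ends with _alt was taken, which gave 3058 of 335430 peaks. The lists were made with antibodies against OCA-B (616 contig peaks), OCT2 (686), OCT1 (104), MED1 (484), CREBBP (435) and EP300 (733), from 1 library each with a common input. All libraries came from cultures of the same line, and the labels name no treatment. No value below therefore has a replicate check.

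The MHC is the gene-dense stretch of chromosome 6 that encodes the HLA class I and class II proteins, which present peptides to T cells, together with peptide transporters, immunoproteasome subunits and cytokines of the TNF family. It differs so much between people that the genome build carries further haplotypes of it as separate sequences, called alternate contigs, beside the primary chromosome. OCT2 and OCT1 are POU proteins that bind the octamer motif, and OCA-B is the lymphoid coactivator that joins them on DNA. MED1 belongs to the Mediator complex, and CREBBP and EP300 are related histone acetyltransferases found at active enhancers and promoters. A read from a stretch that is identical on several copies can be assigned to any of them, so the copies are not independent measurements, and a peak on a contig does not show which haplotypes the cells carry.

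Promoters of 4 MHC genes are printed as examples, picked after their values had been seen. Each held summits of at least 4 lists, and with the lists pooled these lay on 7 or 8 copies of the MHC. A single list could lie on fewer copies. At HLA-DMA, OCA-B had summits on 3 copies, OCT2 on 4, MED1 on 1 and EP300 on 4. Other MHC promoters, such as those of DHX16 and BAG6, met the same description and are not printed. Each printed promoter is the run of 250 bases before a RefSeq gene start (GRCh38.p14), read 5′ to 3′ on the gene's strand. PRRC2A lies on the plus strand at chr6:31620465-31620714, HLA-DMA on the minus strand at chr6:32953098-32953347, RPS18 on the plus strand at chr6:33271825-33272074 and LTB on the minus strand at chr6:31582426-31582675. Capitals mark matches to 3 spellings searched on both strands: the octamer ATTTGCAT (which reads ATGCAAAT on the other strand), the ETS spelling CCGGAAGT, and the CCAAT box.
PRRC2A: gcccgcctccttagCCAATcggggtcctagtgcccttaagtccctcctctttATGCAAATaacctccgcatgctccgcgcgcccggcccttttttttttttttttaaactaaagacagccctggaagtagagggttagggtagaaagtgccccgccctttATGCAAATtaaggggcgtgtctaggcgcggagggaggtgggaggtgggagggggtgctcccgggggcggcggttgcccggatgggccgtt
HLA-DMA: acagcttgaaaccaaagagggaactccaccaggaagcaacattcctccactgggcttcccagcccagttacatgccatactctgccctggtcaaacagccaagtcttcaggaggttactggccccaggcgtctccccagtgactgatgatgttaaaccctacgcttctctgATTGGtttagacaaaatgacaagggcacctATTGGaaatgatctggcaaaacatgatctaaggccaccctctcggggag
RPS18: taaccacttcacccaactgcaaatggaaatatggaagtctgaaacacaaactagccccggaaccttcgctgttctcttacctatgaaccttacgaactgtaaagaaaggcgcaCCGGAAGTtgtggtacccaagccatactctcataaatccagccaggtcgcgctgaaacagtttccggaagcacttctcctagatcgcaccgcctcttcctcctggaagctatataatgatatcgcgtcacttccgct
LTB: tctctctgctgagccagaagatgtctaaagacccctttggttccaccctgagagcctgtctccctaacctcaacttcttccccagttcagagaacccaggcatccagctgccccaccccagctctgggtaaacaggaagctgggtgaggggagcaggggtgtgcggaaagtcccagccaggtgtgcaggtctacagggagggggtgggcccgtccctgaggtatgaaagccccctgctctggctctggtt

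The PRRC2A window held 2 octamers and 1 CCAAT, the HLA-DMA window 2 CCAAT matches and the RPS18 window 1 ETS match. The octamer was found in 1.63% of 35116 promoter windows of this length, in 2 of 270 MHC windows, and in 1 of the 74 MHC windows that held a summit, which is PRRC2A. A variant, ATGCAAAG, was searched too and was in 5 of 270 MHC windows and in 0 of the 74 with a summit. CCGGAAGT was in 3.42% of all windows, in 13 of 270 MHC windows and in 9 of the 74. CCAAT was in 32.0% of all windows, in 105 of 270 and in 38 of the 74. Windows of neighbouring or alternative starts can overlap, as those of RPS18 and VPS52 do, so the same match can be counted again in these numbers. A match is a description of the letters and not a binding site.

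Of the 12 contigs with peaks, 7 long ones (GL000250v2 to GL000256v2) held 2978 peaks and 5 short ones held 80. The primary MHC, taken as a window of 5.0 Mb on chromosome 6 with its first summit at 28580631 and its last at 33454546 (hg38), held 527. Peak totals over the 6 lists were 219 on GL000250v2, 525 on GL000251v2, 450 on GL000252v2, 343 on GL000253v2, 454 on GL000254v2, 531 on GL000255v2 and 456 on GL000256v2. GL000250v2 stood lowest and GL000251v2 and GL000255v2 were level with the primary MHC. Between the first and last summit of each copy, the 7 contigs held 47.6 to 116.5 peaks per Mb and the primary MHC 108.1.

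The longest stretch without a peak was 742.4 kb in the primary MHC, from 29017223 to 29759581. The long contigs other than GL000250v2 had their longest peak-free stretch, 632.8 to 774.8 kb, near the same relative place. On GL000250v2 it was 769.5 kb and lay elsewhere, from 2055054 to 2824593 of the contig. Whether that stretch holds sequence in the contig was not tested.

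**Figure D1:**
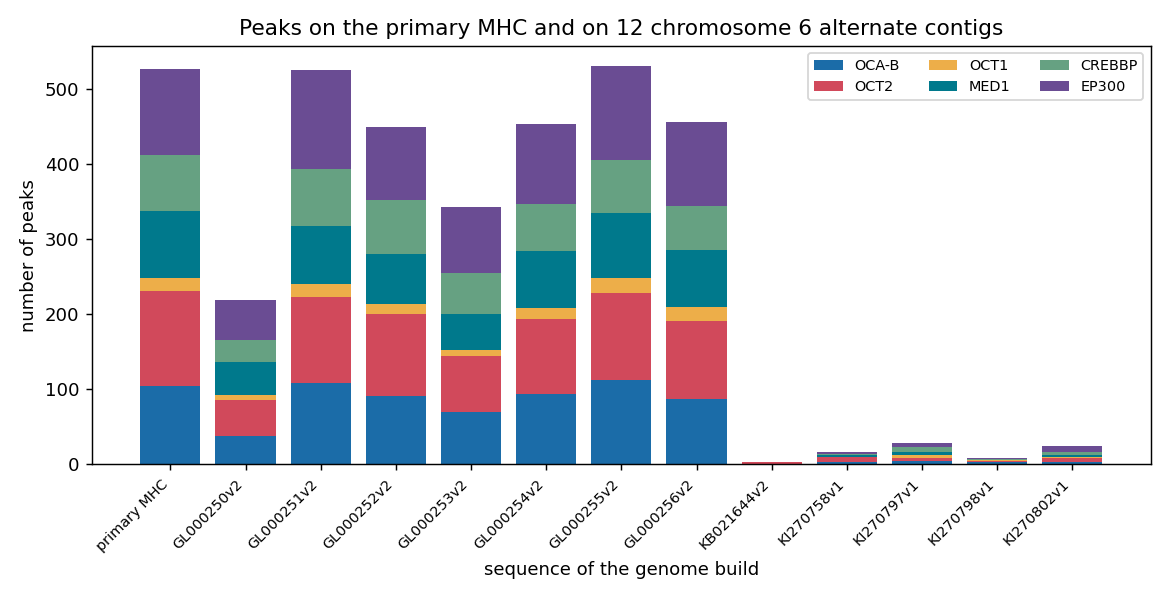
Number of peaks (y axis) on the primary MHC and on each chromosome 6 alternate contig (x axis), stacked by peak list. Totals run from 219 to 531 on the 7 long contigs, beside 527 on the primary MHC, and the 5 short contigs hold 80 in all.

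OCT1 gave the fewest peaks on every long contig, from 6 on GL000250v2 to 19 on GL000255v2 and GL000256v2, and 17 in the primary MHC. EP300 gave 53 on GL000250v2 and 132 on GL000251v2, against 115 in the primary MHC. For OCA-B the contigs held 38 to 112 peaks and the primary MHC 104. For OCT2 they held 48 to 117 and the primary MHC 127. MED1 had 45 to 87 beside 89, and CREBBP 29 to 76 beside 75.

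Contig peaks were low, and as low as those of the primary MHC. The median summit pileup, the number of fragments stacked at the summit, was 12 on the contigs, 12 in the primary MHC and 20 on chromosomes 1 to 22 and X for OCA-B. The same 3 medians were 14, 14 and 21 for OCT2. They were 13, 16 and 24 for OCT1, which rests on 17 peaks in the primary MHC. For MED1 they were 12, 12 and 20, for CREBBP 11, 11 and 18, and for EP300 16, 16 and 23. Pileup on the contigs was thus below the chromosomes in each list and level with the primary MHC in 5 of the 6.

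Fold enrichment, the pileup over the local control, did not show that gap. Its median for OCA-B was 5.73 on the contigs, 5.73 in the primary MHC and 5.64 on the chromosomes. For EP300 it was 6.23, 6.23 and 5.45. CREBBP was the 1 list with a lower median fold on the contigs (6.28) than on the chromosomes (6.6). The control value implied by pileup and fold sat at the genome-wide minimum for 69.2% (OCT1) to 74.2% (OCT2) of contig peaks. The same held for 58.8% to 74.8% of primary MHC peaks, and for 1.8% to 8.8% of peaks on the chromosomes. The part of this low control in the folds was not tested.

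**Figure D2:**
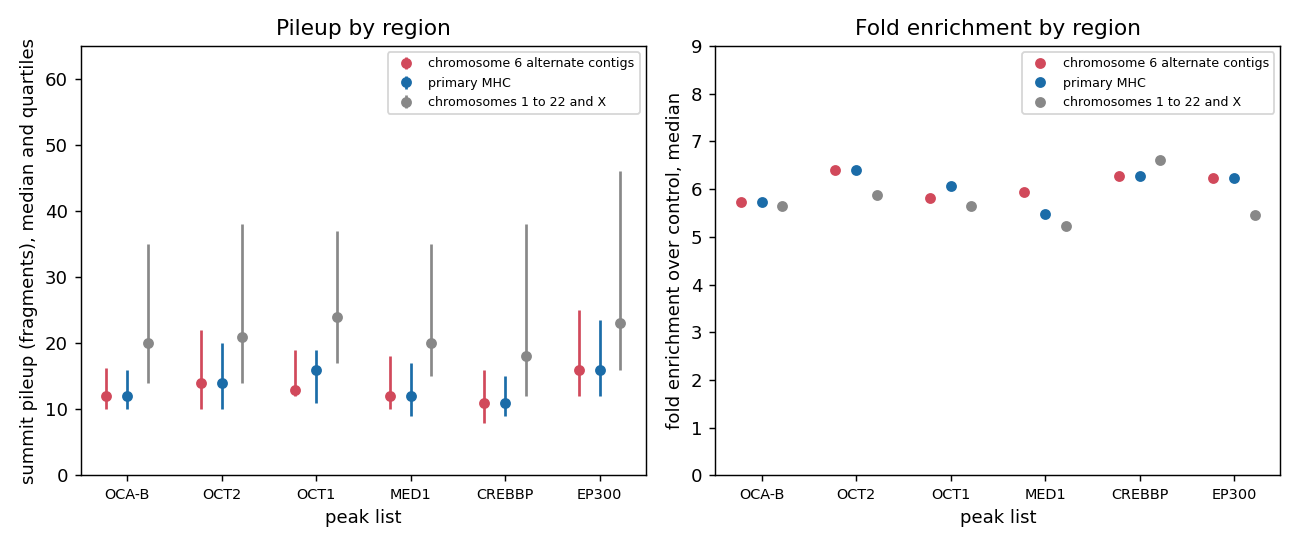
Summit pileup in fragments (left, median with quartile bars) and median fold enrichment over control (right) for each peak list on the x axis, by region. Pileup is lower on the contigs and the primary MHC than on the chromosomes (12, 12 and 20 for OCA-B), whereas the fold medians lie close together (5.73, 5.73 and 5.64 for OCA-B).

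Most contig peaks of a list overlapped a peak of another list by at least 1 bp. For OCA-B the share was 81.8% on the contigs (504 of 616), 83.7% in the primary MHC and 92.9% on the chromosomes. For OCT2 it was 84.0%, 78.7% and 80.6%. For OCT1 it was 78.8%, 76.5% and 79.1%. MED1 gave 88.4%, 83.1% and 94.3%, CREBBP 95.2%, 98.7% and 95.8%, and EP300 78.6%, 76.5% and 69.8%. On the contigs the Wilson 95% intervals were 78.6 to 84.7% for OCA-B, 85.3 to 91.0% for MED1, 81.0 to 86.5% for OCT2 and 75.5 to 81.4% for EP300. OCA-B and MED1 thus lay under, and OCT2 and EP300 over, their shares on the chromosomes. For OCT2 and EP300 this depended on the threshold. With −log10 q over 5 in both lists OCT2 gave 80.4% on the contigs (76.6 to 83.7%) and 81.1% on the chromosomes, and EP300 72.6% (68.8 to 76.2%) and 72.2%. At that threshold OCA-B gave 81.1% on the contigs and 93.7% on the chromosomes, and MED1 89.2% and 96.1%. The primary MHC then gave 81.0% for OCA-B, 86.8% for MED1, 81.4% for OCT2 and 71.1% for EP300, close to the contigs. The intervals cover counting error only, and peaks that recur on several contigs are counted each time.

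These shares moved with pileup. OCA-B peaks with a pileup of 10 or less overlapped another list in 69.9% of cases on the contigs and 71.1% on the chromosomes, and of those above 25, all 54 did so on the contigs and 99.1% on the chromosomes. EP300 peaks of 11 to 15 did so in 71.6% on the contigs and 36.4% on the chromosomes. Overlapping peaks of the 6 lists merged into 1143 regions on the contigs, of which 41.8% came from 1 list and 3.32% from all 6. In the primary MHC 204 regions gave 44.6% and 2.45%, and on the chromosomes the shares were 47.0% and 9.49%. The combination of OCA-B, OCT2, MED1, CREBBP and EP300 without OCT1 made up 13.2% of regions on the contigs, 13.2% in the primary MHC and 10.7% on the chromosomes.

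Contig summits were then placed on the chromosome by the summit differences that several pairs of peaks shared. With OCT2 pairs within 250 kb, 1927 of 2311 peaks of the other 5 lists on the 7 long contigs could be placed. Of these 884 (45.9%, Wilson 95% interval 43.7 to 48.1%) lay within 100 bp of a primary peak of the same list. That width was kept because it gave the most matches of 3 tried, and the share was 54.0% with 100 kb and 37.7% with 500 kb. By list, OCT1 had the smallest share (31.2%) and EP300 the highest (50.7%), with MED1 at 40.6%, CREBBP at 46.2% and OCA-B at 46.5%. An OCT2 pair at the same site could supply the difference, so these matches are partly built in. Between 59.6% (EP300) and 74.0% (CREBBP) of the contig peaks of these lists overlapped an OCT2 peak.

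When pairs of the 5 other lists were used, an approach added after seeing the data, 2885 of 2978 peaks were placed and 1446 matched (50.1%). Pairs of other lists at the same site could supply the difference, so matches at sites shared by several lists are partly built in. The values that follow for matched and unmatched peaks rest on this placement. Matched peaks were higher than unmatched ones, with a median pileup of 18 against 11 for OCT2, 14 against 11 for OCA-B and 20 against 13 for EP300. At matched summits the contig pileup divided by the primary pileup had a median of 1.0. The middle range, from the tenth to the ninetieth percentile, was 0.69 to 1.5, and 82.6% of the pairs lay within 1.5 times of each other. Spearman's rho over the 1446 pairs, with all lists pooled, was 0.79. Within single lists it ran from 0.58 for OCA-B to 0.82 for OCT2 and EP300. Both describe pairs that share a library and, possibly, reads, and a primary summit can recur in pairs of several contigs.

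**Figure D3:**
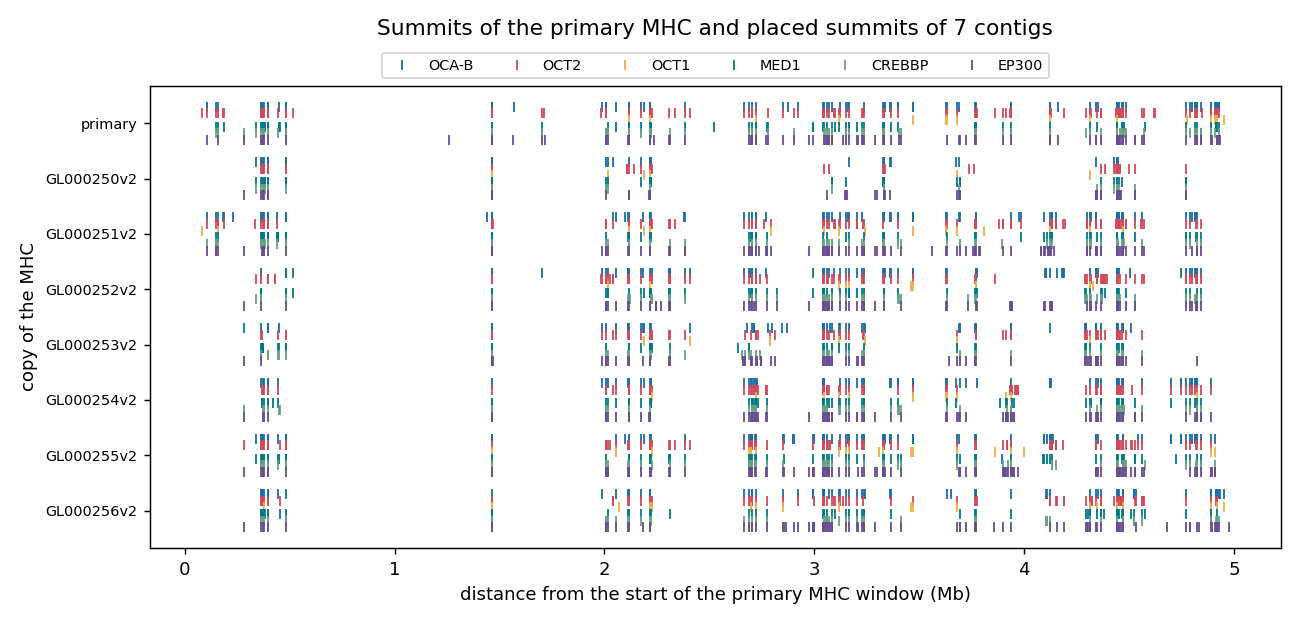
Summits by distance from the start of the primary MHC window in Mb (x axis) for the primary copy and the 7 long contigs (y axis), coloured by peak list. Columns of ticks recur across copies, a stretch without summits (742.4 kb on the primary copy) recurs in the left part of all copies, and GL000250v2, with 219 peaks, is the sparsest.

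Summits of the 8 copies that fell within 150 bp of the next were joined into 567 positions, a number that became 856 when summits were joined within 50 bp. Of these 217 had a peak on the primary copy and 350 had none, 314 had a peak on 1 copy alone, and 33 had one on all 8. Positions on 5 or more copies numbered 120, of which 118 included the primary copy, and they held 2450 of the 3412 peaks. Among them 68 had peaks of 5 or 6 lists and 20 of all 6. Positions on 1 copy came with a median of 1 list, and those on 8 copies with a median of 5 lists. The contig summits were placed here by pairs of the other lists with primary peaks. The recurrence of positions with several lists, and their primary peaks, are therefore partly built in. A misplaced summit can also make a position on 1 copy alone.

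**Figure D4:**
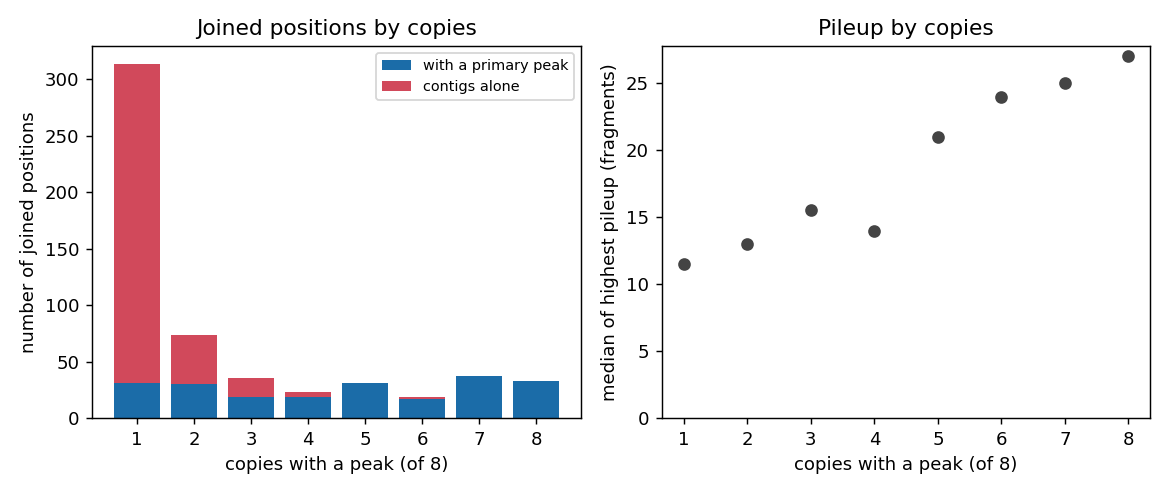
Number of joined positions (left) and the median of their highest pileup in fragments (right) against the number of the 8 copies with a peak (x axis). There are 314 positions on 1 copy and 33 on 8, with medians of 11.5 and 27; positions on more copies hold more peaks from which the highest is taken.

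The positions described next were picked for their high pileup, so their height is no finding. At 31222672, 46077 bp from HLA-C, which encodes a class I heavy chain, EP300 had peaks on 7 copies, with 71 on the primary copy, 79 on GL000251v2, 89 on GL000252v2, 67 on GL000253v2, 92 on GL000254v2, 119 on GL000255v2 and 117 on GL000256v2. CREBBP ranged from 40 to 86 over the same copies (median 64) and OCT2 from 30 to 107 (median 60). GL000253v2 was lowest for these 3 lists, and GL000250v2 had no peak there. OCA-B ranged from 20 to 46 and MED1 from 19 to 39 over 6 copies, and OCT1 from 9 to 30 over 4.

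At PRRC2A, which encodes an RNA-associated protein, 2 neighbouring positions carried the highest OCA-B, OCT2 and OCT1 pileups of the long contigs. The position at 31620558 lay inside the promoter printed above. OCA-B had peaks there on 7 copies, with 99 on the primary copy, 69 on GL000251v2, 133 on GL000252v2, 93 on GL000253v2, 130 on GL000254v2, 71 on GL000255v2 and 68 on GL000256v2. OCT2 had 70, 57, 126, 73, 115, 62 and 54 on the same copies. Both were highest on GL000252v2 and GL000254v2, and GL000250v2 had no peak of either.

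Their median summits lay 35 bp (OCA-B) and 39 bp (OCT2) from the centre of the first octamer. From the centre of the second octamer they lay at -73 bp (OCA-B) and -69 bp (OCT2), so they fell between the 2. MED1 (16 and 17), CREBBP (12 and 16) and EP300 (15) had peaks there only on GL000252v2 or GL000254v2. OCT1 had no summit in the window. Its summits were at the other position, 31619972, with 107 on the primary copy and 89 to 153 on 7 copies. OCT2 had a further summit there, of 82 to 121. The primary OCT1 peak ran from 31619758 to 31620836 and so covered both positions.

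Class II genes had peaks at HLA-DOB, HLA-DMA and HLA-DMB, which encode subunits of the proteins that control peptide loading of class II molecules. Inside HLA-DOB, at 32816197, OCT2 had a pileup of 119 on the primary copy, 106 on GL000251v2, 119 on GL000252v2, 53 on GL000253v2, 107 on GL000254v2 and 120 on GL000256v2. GL000253v2 was lowest there for OCT2, OCT1, CREBBP, EP300 and MED1 (for MED1, 11 against 25 to 43 on the other copies with a peak). It had no OCA-B peak at that position. EP300 ranged from 62 to 93 over 6 copies, and OCT1 from 14 to 24 over 6.

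Between HLA-DMB and HLA-DMA, at 32944554, all 8 copies had peaks of the 5 lists other than OCT1. EP300 was even there, from 108 to 134. OCT2 was 110 on GL000250v2 and 34 to 55 on the other 7 copies. Close to HLA-DMB, at 32941671, EP300 ranged from 40 to 62 and CREBBP from 21 to 36. Within 1 kb of HLA-DMA the highest OCT2 pileup was 29 to 52 over 8 copies.

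**Figure D5:**
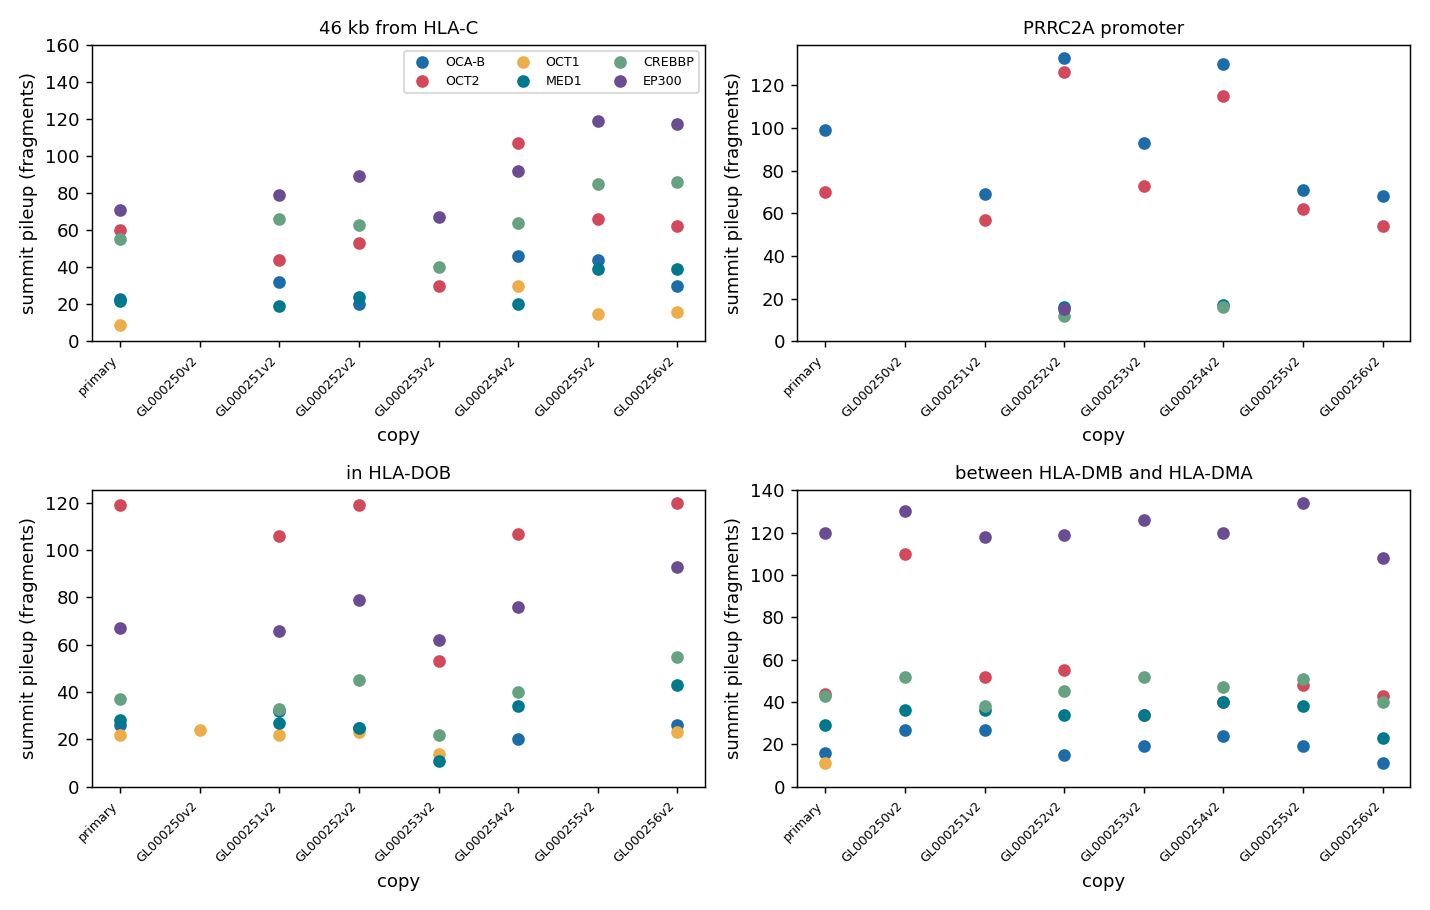
Summit pileup in fragments (y axis) on each copy (x axis) at 4 joined positions, coloured by peak list; a missing point means no peak. EP300 spans 108 to 134 between HLA-DMB and HLA-DMA, and OCA-B spans 68 to 133 at the PRRC2A promoter.

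HLA-DRA, which encodes the alpha chain of HLA-DR, had OCT2 peaks within 1 kb on 4 copies, of 59 on the primary copy, 58 on GL000251v2, 55 on GL000253v2 and 54 on GL000255v2. OCA-B had 31 on the primary copy and 17 to 37 over 5 copies. EP300 had 9 to 28 on 3 contigs and no peak on the primary copy. HLA-DRB5 had no peak of any list, and HLA-DRB1 had 1 copy each for EP300 (20) and MED1 (10). HLA-DQA1 had OCT2 peaks of 12 to 28 on 3 contigs, and HLA-DQB1 had an EP300 peak of 43 on the primary copy alone.

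Class I genes were sparsely marked at their ends. HLA-E had OCA-B peaks of 8 to 15 on 5 copies, and HLA-C had EP300 peaks of 9 to 15 on 3. HLA-F and HLA-G had none in any list.

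Of the 5 listed peptide processing genes, TAP1 and PSMB8 had EP300 and OCA-B peaks on all 8 copies, and TAP2 had nearly none. At TAP1, a subunit of the peptide transporter, EP300 had 14 to 25 and OCA-B 11 to 15. At PSMB8, an immunoproteasome subunit, EP300 had 16 to 25 and OCA-B 9 to 15. These genes are neighbours, so a peak can count for both. TAPBP, the tapasin gene, had OCA-B peaks of 19 to 29 on 5 copies. PSMB9, a further immunoproteasome subunit, had OCA-B peaks of 7 to 14 on 5 copies and EP300 peaks of 10 and 11 on 2. TAP2, the other transporter subunit, had an OCT2 peak on GL000256v2 alone (20) and no peak of the other 5 lists.

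In the TNF family, LTB (lymphotoxin beta) had EP300 peaks of 31 to 46 on 7 copies and CREBBP peaks of 10 to 20 on 7. LTA (lymphotoxin alpha) had EP300 peaks of 10 to 36 on 8 copies and OCT2 peaks of 15 to 23 on 7. These lay at 31560101, 509 bp from the nearest end of LTA, and the LTA promoter windows, from 31571849 on, held no summit. Some can count for the neighbour NFKBIL1 too, as both genes had an EP300 peak of 28 on the primary copy. TNF itself had 1 copy each for EP300, OCA-B and OCT2, of 8 to 12.

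Among the other listed genes, BAG6, which encodes a chaperone, had MED1 peaks of 9 to 27 on 8 copies and OCT2 peaks of 16 to 27 on 7. BRD2, a bromodomain protein gene, had EP300 peaks of 16 to 24 on 6 copies. NFKBIL1 had EP300 peaks of 23 to 32 on 7 copies, some of which can be those given for LTA.

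Of the 48 listed genes, 23 had a peak of any list within 1 kb on the primary copy, 35 on a placed contig and 36 on either. Of all coding genes on the chromosomes, 56.0% had a peak of any list there, and of the 172 coding genes of the MHC 69 did on the primary copy (40.1%). On a placed contig 93 of the 172 did (54.1%), and on either 95 (55.2%). The contigs pool 7 copies and so give more chances for a peak than the primary copy. Among all 172 coding genes of the MHC, OCA-B had a peak at 57 on the primary copy (33.1%), against 46.2% of coding genes on the chromosomes. OCT2 had one at 48 (27.9%, against 40.9%) and OCT1 at 17 (9.88%, against 41.9%). MED1 had one at 41 (23.8%, against 33.7%), CREBBP at 28 (16.3%, against 31.0%) and EP300 at 43 of the 172 (against 45.5%). On the primary copy alone the MHC thus lay under the background in all 6 lists. With the contigs pooled in, the numbers were 78 (45.3%), 64 (37.2%), 38 (22.1%), 62 (36.0%), 54 (31.4%) and 70 (40.7%) in the same order of lists. The background counts a single copy of each gene, so a pooled share over it cannot be read as an excess. This holds for MED1 (36.0% against 33.7%) and CREBBP (31.4% against 31.0%). OCA-B lay close under its share even when pooled, and OCT2, OCT1 and EP300 lay under theirs.

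Away from genes on the list, MED1 had its highest long-contig pileups at 28865847, 37155 bp from TRIM27, with 112 on the primary copy and 48 to 112 over 7 copies. The other lists were at 6 to 22 there. At 31190671, 19989 bp from POU5F1, GL000255v2 stood apart in pileup: EP300 was 195 on it and 74 to 89 on the other 5 copies with a peak. CREBBP was 127 on it and 36 to 54 elsewhere, and OCA-B 72 and 11 to 18. Fold enrichment did not set it apart for EP300, with 31.6 on GL000255v2 and 34.6 on the primary copy. For CREBBP the fold was 38.7 on GL000255v2, against a median of 23.42 over the peaks at this position. At 31212736, 42054 bp from POU5F1, 5 lists had a peak on GL000254v2 alone, with EP300 at 89 and CREBBP at 55. Placement rests on summit differences and not on sequence, so whether the other copies hold that sequence was not tested. Each list was placed by its own differences, so a position on 1 copy alone can also be a misplaced one. At 31204289, EP300 was 84 on GL000251v2 and 11 on GL000254v2, and CREBBP 60 and 13. Whether the peaks of GL000254v2 at 31212736 belong there was not tested.

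The name MHC contig holds for the 7 long contigs, whose summits matched the MHC, and was not shown for the 5 short ones. For 2 of these the most frequent OCT2 difference, shared by 4 pairs each, was used, so the OCT2 matches were fixed by that choice. On KI270802v1, with a difference of 166220542, 12 of the 19 peaks of the other 5 lists fell within 100 bp of a primary peak of the same list, near TBXT and PRR18 and outside the MHC. The strongest CREBBP peak there had 233 on the contig and 235 on the chromosome, and that of EP300 257 and 247. On KI270758v1, 4 of 9 did so at a difference of 2836937, near SERPINB1 and SERPINB9. Pileups differed more there: the matched EP300 peak had 54 on the contig and 74 on the chromosome, and the 4 OCT2 peaks had 8 against 20, 69 against 18, 23 against 50 and 35 against 13. The other 3 short contigs held 29, 8 and 3 peaks and were not placed.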

How the data were processed

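The 6 ChIP libraries of OCI-Ly7 cells were used as the peak lists the authors deposited, 1 per antibody, with 1 shared input as control. Per the submitters' processing notes the build is hg38, and the tools named include MACS2 2.1.1.20160309 and Bowtie2 2.3.2.2. How reads that fit several copies of the MHC were treated is not given in the sources used here. Per the file headers, the q-value threshold was 0.05. The deposited signal is the pileup at the summit, the deposited ratio is the fold enrichment over the control, and significance is deposited as −log10 p and −log10 q, all from the authors' peak caller. The libraries held 12357478 to 34662045 tags, per the file headers.

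No genome sequence was used here, so contig summits were placed on chromosome 6 by summit differences. For each contig the most frequent OCT2 difference to chromosome 6 was found, and differences within 200 kb of it were kept. A summit then took the difference shared by most pairs nearby, with at least 3 pairs. The design named OCT2 pairs and a match within 100 bp but no window width. Widths of 100, 250 and 500 kb were tried after the files had been seen, for OCT2 pairs and for pairs of the other 5 lists, and the widths kept (250 kb for OCT2, 100 kb for the other lists) are those that gave the most matches, so the matched shares are chosen upward. The minimum of 3 pairs, the 200 kb band, the joining of summits within 150 bp, the pileup bands, the stricter q for the chromosomes and the other-list pairs were also set after the files had been seen. Placement and overlap were tested on simulated data. The simulated sites lay at random, with few changes of the difference and little scatter of summits. That test therefore does not show how well placement worked on the real contigs.

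Members and lists were chosen with earlier results of these data known. Named genes are 48 MHC genes listed by role, and the nearest coding gene of the 5 strongest peaks per list and region. Gene positions and promoters came from RefSeq (GRCh38.p14). The printed promoters were picked after their values had been seen, and where a gene has several starts the one with most summits was used. Scripts ran in Python 3.11.15 with pandas 2.3.3, numpy 2.4.6 and scipy 1.17.1. With 1 library per factor no test was made. Wilson 95% intervals cover counting error only, and peaks are not independent. Results at some positions are not reported here.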

Additional observations from a re-analysis of the deposited data

How the results depend on the processing

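The share of placed contig peaks with a counterpart in the primary MHC moved with the settings. It was 45.9% with OCT2 pairs within 250 kb and a match within 100 bp. It became 30.4% with a match within 50 bp, 58.5% within 250 bp, and 50.4% for peaks with −log10 q over 5. With OCT2 pairs within 100 kb it was 54.0% and within 500 kb 37.7%, and these widths also placed other numbers of peaks (1325 and 2160, against 1927). With pairs of the other 5 lists, an alternative chosen after seeing the data like the widths, it was 50.1% within 100 kb, 45.3% within 250 kb and 38.8% within 500 kb. Over all 2311 peaks of the 5 lists, placed or not, the 3 widths of OCT2 pairs matched 30.9%, 38.3% and 35.2%, the second being the width kept. The median pileup ratio of matched summits was 1.0 under each of these settings that was run for it. The median over lists of the contig to primary MHC pileup ratio was 1.0, and 1.06 for peaks with −log10 q over 5. The share of contig peaks overlapping another list was 84.4%, against 82.2% with summits within 250 bp and 81.8% with −log10 q over 5 in both lists. Joined positions numbered 567, and 856 or 460 when summits were joined within 50 or 300 bp. Those with a peak on 5 or more copies numbered 120, and 104 to 125 over the 4 alternatives. Of the 62 alternative values for single lists and joined positions, 51 stayed within the bounds set for them and 11 did not. Among the latter, the overlap share on the contigs became 80.4% for OCT2 and 72.6% for EP300 with −log10 q over 5 in both lists, and the MED1 count fell from 484 to 316. No paired analysis was possible because each factor has 1 library. Depth limits the lists: the lowest deposited pileups on the contigs are single-digit, and a missing peak does not show an empty site.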
